A study of Homo sapiens with 16 samples.

Results

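The genes described here are 9 human genes listed under fatty acid oxidation, CPT1A, CPT1B, CPT1C, CPT2, ACADM, ACADL, ACADVL, HADHA and HADHB, out of the 20005 protein-coding genes of GENCODE release 44. They were taken by name as genes of this pathway, since the cells had been given octanoic acid (OA), a medium-chain fatty acid. Chromatin was profiled by CUT&RUN, in which an antibody directs a nuclease to a histone mark and the released DNA fragments are sequenced. All 16 libraries came from MCF-10A, an established line of nontransformed human breast epithelial cells, grown in complete MEBM. The libraries compared came from cells exposed for 24 hours to 5 mM OA or to PBS as vehicle, with 3 libraries per condition from separate seedings for H3K4me3, a mark of active promoters, and 3 per condition for H3K27me3, a mark of repressed chromatin. A further 2 libraries each for H3K4me3 and IgG came from untreated cells. All values thus come from 1 cell line. The values are peaks that the authors called in each library: position, fold enrichment over local background, and −log10 p. A gene was counted as marked where a peak region lay within 3 kb of any of its annotated transcript starts, a region being kept where 2 or more of the 6 vehicle and OA libraries had a peak in it.

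Long-chain fatty acids enter the mitochondrion as carnitine esters. Carnitine palmitoyltransferase 1 on the outer membrane (CPT1A in liver and most tissues, CPT1B in muscle) makes the ester. CPT1C, a related gene of brain, was taken by name and is not given this step here. CPT2 on the inner membrane turns the ester back into an acyl-CoA. Acyl-CoA dehydrogenases then start each round of β-oxidation, ACADVL on very long, ACADL on long and ACADM on medium chains, and the trifunctional protein, built of HADHA and HADHB, carries out the following steps for long chains. Octanoic acid can cross into the mitochondrion without carnitine, and its CoA ester is a substrate of ACADM.

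H3K4me3 is deposited mainly at CpG-rich start sites, so the sequence just upstream of a start is shown first for genes on both sides of the result below: CPT1A, CPT2, ACADM and HADHA with HADHB, whose starts were marked in every H3K4me3 library, and CPT1C and ACADL, whose starts were marked in none. Each line is hg38 sequence, 5′ to 3′ on the strand of the gene (the plus strand, that of HADHB, for the shared window), with every CpG in capitals. The HADHA and HADHB window runs from the outermost HADHA start to the next HADHB start. A longer HADHB transcript begins before it, at base 26243170, so the annotated genes overlap and the window lies in an intron of that transcript. No annotated exon overlaps these windows, except that the ACADL window lies in an exon of ENSG00000279317, a noncoding RNA on the opposite strand.
CPT1A, chr11:68841932-68842081, minus strand: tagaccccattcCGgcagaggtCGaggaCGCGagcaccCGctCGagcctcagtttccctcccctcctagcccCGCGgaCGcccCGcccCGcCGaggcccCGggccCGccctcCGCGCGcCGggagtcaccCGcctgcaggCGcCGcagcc
CPT2, chr1:53196642-53196791, plus strand: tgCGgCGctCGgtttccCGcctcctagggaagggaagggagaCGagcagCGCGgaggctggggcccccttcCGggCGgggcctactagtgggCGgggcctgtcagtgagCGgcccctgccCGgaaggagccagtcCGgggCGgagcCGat
ACADM, chr1:75724281-75724430, plus strand: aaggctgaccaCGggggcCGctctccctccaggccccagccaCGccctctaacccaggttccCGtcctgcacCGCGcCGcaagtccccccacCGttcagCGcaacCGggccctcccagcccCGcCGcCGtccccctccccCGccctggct
HADHA-HADHB, chr2:26244673-26244747, plus strand: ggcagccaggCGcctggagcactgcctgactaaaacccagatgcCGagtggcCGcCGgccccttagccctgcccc
CPT1C, chr19:49690748-49690897, plus strand: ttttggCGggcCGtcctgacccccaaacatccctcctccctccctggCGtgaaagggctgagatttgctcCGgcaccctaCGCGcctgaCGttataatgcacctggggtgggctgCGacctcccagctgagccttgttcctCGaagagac
ACADL, chr2:210225448-210225597, minus strand: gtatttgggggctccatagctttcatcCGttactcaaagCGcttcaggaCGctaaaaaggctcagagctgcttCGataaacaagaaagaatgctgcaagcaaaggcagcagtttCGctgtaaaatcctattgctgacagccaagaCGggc
Each 150-base window ends just before the most upstream annotated start within 500 bp of the canonical start. Its distance from the canonical start therefore differs between genes, being largest at ACADM and CPT1C. The CPT1A, CPT2 and ACADM windows hold 21, 15 and 14 CpGs, and those of CPT1C and ACADL hold 9 and 6. The window between the HADHA and HADHB starts holds 4 CpGs in 75 bases, and the like window of ACADVL, marked in every library and not printed, holds 10 in 150.

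H3K4me3 was called at the starts of 6 of the 9 genes, CPT1A, CPT2, ACADM, ACADVL, HADHA and HADHB, in every vehicle and every OA library. CPT1B, CPT1C and ACADL had no such region. The number of genes with a call was therefore 6 in each of the 6 libraries, a difference of 0 between OA and vehicle (p = 1 in an exact two-sided permutation test, whose smallest possible p is 0.1 with 3 libraries a side). Among all protein-coding genes, 56.5% had a kept region called in all 6 libraries, 10.4% in 1 to 5, and 33.1% had no kept region. The same 6 genes were called in both untreated H3K4me3 libraries, and none of the 9 in either IgG library. H3K27me3 was called at none of the 9 in 2 or more libraries, where 86.2% of protein-coding genes had no region kept and 2.04% had one called in all 6 libraries. With single-library regions dropped, the mean number of genes with an H3K27me3 call was 0 under both conditions (p = 1 in the same exact test). Counts that are equal in every library fix the p of this test for either mark, so it adds nothing to the counts. A missing call does not show that a mark is absent, since a weak peak can miss the threshold, and a call cannot tell fewer cells with the mark from less mark per cell.

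The 6 H3K4me3 lists held 16086 to 21033 peaks on the numbered and sex chromosomes, the untreated lists 12924 and 11242 and the IgG lists 1280 and 1131, and the H3K27me3 lists 9091 to 47648. Read numbers were not used here. The lowest background that many peaks of a list share, recovered from the fold and p of the peaks, scales with depth unless a control library set it, and was 0.450 reads in vehicle 3 against 0.633 to 0.853 in the other 5 libraries. Of 5 markers of basal mammary epithelium, KRT5 and ITGB4 carried H3K4me3 in all 6 libraries (KRT5 was also called in 1 of the IgG libraries), KRT14 in 2 vehicle and 0 OA libraries, TP63 in 2 and 2, and CDH1 in 2 and 3. Of 10 markers of leukocytes, endothelium, liver, muscle and neurons, 9 had no H3K4me3 call in any of the 6 libraries and SYP had one in all 6. MTAP and CDKN2A, which lie in a segment deleted in MCF-10A, had none.

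These genes had 8 merged H3K4me3 regions between them, of which 5 were called in all 6 libraries, beside 59.1% of the 18734 merged regions of the genome. None of the 8 was called in all 3 OA and no vehicle library (1.84% of all regions) or in all 3 vehicle and no OA library (0.0801%). The 5 regions called throughout were those over the starts of CPT1A, CPT2, ACADM, ACADVL and the HADHA and HADHB pair. To follow a start site across libraries, its strongest peak was ranked by −log10 p among the peaks of its own library, with 100 for the strongest. In order of the mean percentile over the 6 libraries, the shared HADHA and HADHB region came first at 97.5 ± 3.00 (SD, n = 6), followed by ACADVL at 80.9 ± 15.6, ACADM at 73.7 ± 6.93, CPT2 at 73.5 ± 8.23 and CPT1A at 72.8 ± 21.8. The ranges of each pair of neighbours in this order overlapped, so no neighbours differed beyond the spread between libraries. The lowest value of the HADHA and HADHB region, 91.5, was above the highest of ACADM, 84.4, and of CPT2, 82.8. By mean fold enrichment over the 6 libraries the order differed, with 11.2 at ACADVL, 10.9 at CPT2 and 10.8 at ACADM. The HADHA and HADHB region followed at 9.95 and CPT1A at 8.71, and the ranges overlapped.

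**Figure D1:**
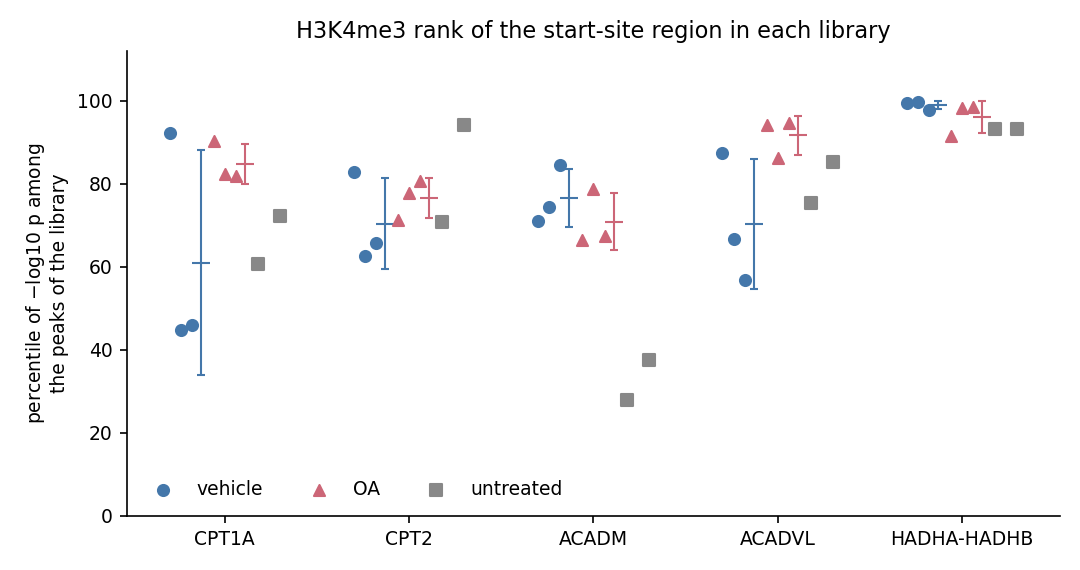
Percentile of −log10 p (vertical axis) of the H3K4me3 region at 5 start sites (horizontal axis) in 3 vehicle (circles), 3 OA (triangles) and 2 untreated libraries (squares). Each symbol is a library, and bars give the mean and SD of the 3 vehicle or OA libraries. CPT1A sits at 92.2 in vehicle 1 and near 45 in the other vehicle libraries, against 81.8 to 90.3 under OA.

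CPT1A (ENSG00000110090.13, chr11:68754620-68844410, minus strand) is the carnitine palmitoyltransferase 1 isoform of most tissues. Its region, chr11:68840597-68842094, covers the canonical start, 178 bp before it, the whole 142-base first exon and the head of the first intron. The percentile was 92.2, 44.7 and 45.9 in vehicle 1, 2 and 3 and 90.3, 82.2 and 81.8 in OA 1, 2 and 3. Vehicle 2 and 3 lay far below every OA library, while vehicle 1 lay above all 3, so the groups overlapped. The mean was 60.9 ± 27.1 under vehicle and 84.8 ± 4.84 under OA (SD, n = 3 each), and the difference of 23.8 ± 12.2 percentile points (SE, n = 3 each) did not pass limma's test (adjusted p = 0.489).
The peak over CPT1A was 1188, 1185 and 895 bp long in the vehicle libraries and 1075, 1171 and 1423 bp in the OA libraries. Fold enrichment here was 10.7, 8.15 and 8.01 under vehicle and 7.59, 9.74 and 8.15 under OA. Neither measure set the groups apart. The summit, the highest point of the peak, lay 472, 995 and 1001 bp downstream of the canonical start in vehicle and 560, 593 and 711 bp downstream in OA, inside the first intron in every library. A second stretch of 208 bp further into the intron was called in OA 3 alone, at a percentile of 7.23.

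ACADVL (ENSG00000072778.20, chr17:7217125-7225266, plus strand), the very long chain acyl-CoA dehydrogenase, has a region at chr17:7219832-7221124 that begins 106 bp before the canonical start and touches the first 6 exons. The same region also covers a start of DLG4, a postsynaptic scaffold gene on the opposite strand. It lies within 3 kb of a start of MIR324 too, so its signal cannot be assigned to ACADVL alone. The percentile was 87.5, 66.7 and 56.7 under vehicle and 94.0, 86.1 and 94.6 under OA. The groups overlapped through vehicle 1, which stood above OA 2. The difference of 21.3 ± 8.53 points (SE, n = 3 each, 70.3 to 91.6) did not pass limma's test (adjusted p = 0.386).
Peak length at ACADVL was 1289, 1132 and 315 bp under vehicle and 1192, 1126 and 1185 bp under OA. The peak of vehicle 3 was the shortest. The difference was +0.44 ± 0.35 on the centred log2 scale (adjusted p = 0.736 by limma) and −0.0075 without vehicle 3. The median peak over the 11071 regions called in every library was 834 bp in vehicle 3 and 1080 to 1382 bp in the others. A second region, chr17:7214127-7215162, lies 1963 bp from the outermost ACADVL start, in DLG4. It was called in every library but vehicle 3, a pattern shown by 8.19% of all merged H3K4me3 regions.

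ACADM (ENSG00000117054.15, chr1:75724431-75787575, plus strand) encodes the medium-chain acyl-CoA dehydrogenase, which acts on octanoyl-CoA itself. Its region, chr1:75723924-75725656, reaches from 785 bp before the canonical start to 947 bp after it, and also covers a start of ENSG00000230863. The percentile was 71.0, 74.2 and 84.4 under vehicle and 66.4, 78.8 and 67.4 under OA. The libraries of the 2 conditions were interleaved, with a difference of −5.70 ± 9.05 points (SE, n = 3 each; adjusted p = 0.848 by limma).
Fold enrichment here was 9.24, 11.0 and 14.7 under vehicle and 8.22, 11.7 and 9.87 under OA, and its length 1176, 1431 and 991 bp under vehicle and 704, 1300 and 1262 bp under OA. Both ranges overlapped. A further, weaker region inside the first intron, chr1:75725774-75726107, was called in vehicle 1 and 2 and OA 2, at percentiles of 17.2, 11.5 and 3.86. In the untreated libraries the main ACADM region ranked at 27.8 and 37.4, below all 6 vehicle and OA libraries, whereas the other 4 regions ranked between 60.6 and 94.1 there. The untreated lists are shorter, and this difference was not tested.

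CPT2 (ENSG00000157184.7, chr1:53196792-53214197, plus strand), the inner-membrane transferase, has a region at chr1:53196496-53197717 that takes in 328 bp before the canonical start, the 272-base first exon and part of the first intron. The percentile was 82.8, 62.7 and 65.6 under vehicle and 71.3, 77.7 and 80.5 under OA. The highest value was again that of vehicle 1 and the groups overlapped (difference 6.16 ± 9.32 points, SE, n = 3 each; adjusted p = 0.838 by limma). Fold enrichment here was 11.1, 11.4 and 12.2 under vehicle and 7.88, 12.02 and 10.8 under OA, and its length was 856, 880 and 696 bp under vehicle and 885, 1130 and 1095 bp under OA. Every OA peak was longer in bp than every vehicle peak, and the share of all regions with this pattern in bp was not counted. The median length over all regions was 1290, 1304 and 834 bp under vehicle and 1080, 1309 and 1382 bp under OA. Its mean was 0.16 higher in OA on the log2 scale, with vehicle 3 the lowest library and the others overlapping. After centring, the difference in length was +0.19 ± 0.16 (adjusted p = 0.743 by limma) and the groups overlapped.

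HADHA (ENSG00000084754.12, chr2:26190635-26244672, minus strand) and HADHB (ENSG00000138029.14, chr2:26243170-26290465, plus strand), the subunits of the trifunctional protein, are transcribed away from each other and share the region chr2:26243805-26245188, which covers both canonical starts. They therefore count as 1 region in the comparisons. The percentile was 99.4, 99.5 and 97.8 under vehicle and 91.5, 98.1 and 98.5 under OA. It stood above the 90th percentile of every list, and the groups overlapped through vehicle 3 (difference −2.87 ± 2.43 points, SE, n = 3 each; adjusted p = 0.680 by limma). Without OA 1 the difference was −0.601 points.
Fold enrichment here was 9.04, 10.5 and 15.7 under vehicle and 6.63, 9.10 and 8.80 under OA. On the centred log2 scale every OA library lay below every vehicle library, as did 7.2% of the 11071 regions, with a difference of −0.33 ± 0.18 (SE, n = 3 each; adjusted p = 0.713 by limma), which was −0.16 without vehicle 3. The peak spanned 1243 to 1384 bp in all 6 libraries. A second region beside it, chr2:26245370-26246104 in the first HADHB intron, was called in every library but vehicle 3.

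**Figure D2:**
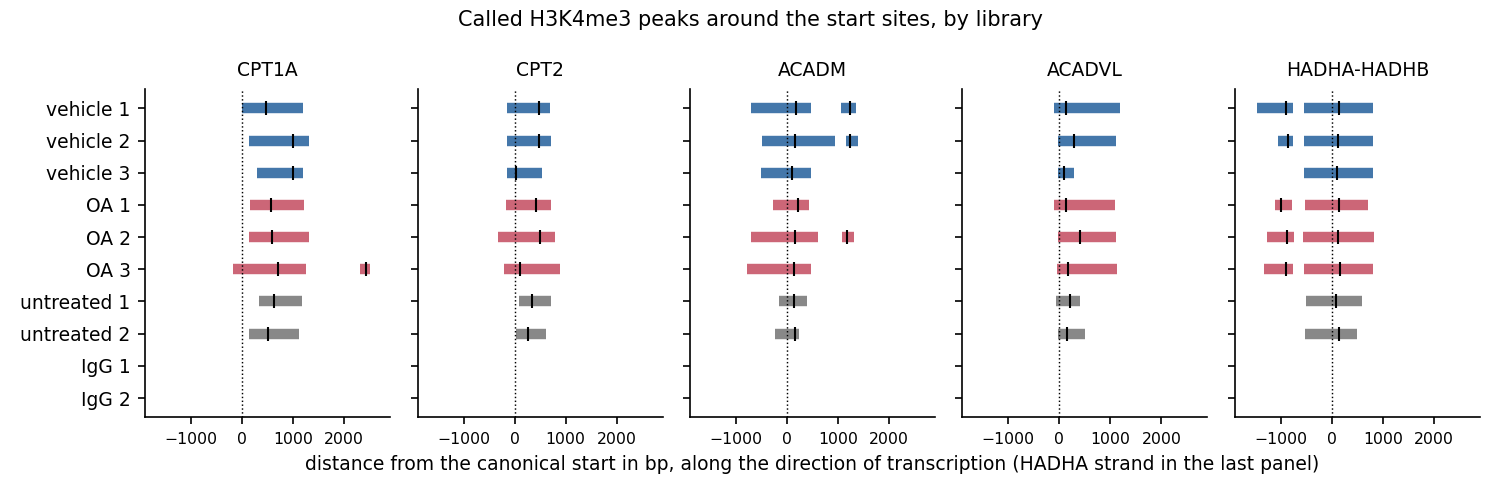
Extent of each called H3K4me3 peak (bars) and its summit (ticks) in 10 libraries (rows), by distance in bp from the canonical start (dotted line) in the direction of transcription, on the HADHA strand in the last panel. The second ACADVL region lies outside the range drawn. Summits at CPT1A lie downstream of the start, the ACADVL peak of vehicle 3 spans 315 bp, and neither IgG library has a peak.

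The question of whether OA exposure shifted H3K4me3 at these genes was put to 4 measures of the 5 regions: the percentile, the length, the fold enrichment and the summit pileup. The pileup, the number of reads or fragments stacked at the summit, was solved from the deposited fold and p. Length, fold and pileup were taken as log2 values centred on the median of each library. No region passed limma's test at an adjusted p of 0.05 in any of them, and an unadjusted p under 0.05 was reached in 1 region by percentile, 0 by length, 0 by fold and 2 by pileup, beside 11.2%, 8.16%, 7.41% and 18.9% of all regions. All regions here are the 11071 called in all 6 libraries, or 11001 by pileup, so a peak called in OA alone was not tested. Over them the test called few. By percentile 0.0181% were higher and 0% lower in OA, and by length 0% in either direction. By fold 0.00903% were higher and 0% lower, and by pileup 0.118% higher and 0% lower. By percentile and by length, the vehicle and OA libraries overlapped at all 5 regions, where 9.38% of all regions lay wholly higher and 7.1% wholly lower in OA by percentile, and 7.6% and 8.8% by length. By fold, 0 of the 5 lay wholly higher (6.79% of all regions). The adjusted p of the 5 regions ran from 0.386 to 0.848 for the percentile, from 0.685 to 0.983 for length, from 0.713 to 0.972 for fold and from 0.199 to 0.738 for pileup. In simulated data the test seldom found changes of the size seen here (given under the processing), so a miss does not show that a region is unchanged.

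At CPT1A the pileup was 111, 68 and 19 reads under vehicle and 58, 123 and 127 under OA, where the median region of the same libraries had 82, 119 and 33 under vehicle and 39, 92 and 100 under OA. Measured against these medians, CPT1A stood above the median region in vehicle 1 and in all 3 OA libraries and below it in vehicle 2 and 3. The centred difference was +0.84 ± 0.32 on the log2 scale, a ratio of 1.79 (adjusted p = 0.227 by limma). Without vehicle 1 it was +1.23 with an adjusted p of 0.0305, when 551 of all regions were called in place of 13. With this library left out, CPT1A was past the threshold, so the call turns on 1 vehicle library. Over all alternatives run, the adjusted p at CPT1A was 0.0305 to 0.9999.
ACADVL had 94, 102 and 23 reads under vehicle and 56, 127 and 131 under OA. After centring, every OA library lay above every vehicle library, as did 14.7% of the 11001 regions with a recovered pileup (+0.65 ± 0.23, adjusted p = 0.199 by limma, with a range of 0.0583 without vehicle 1 to 0.9999 over the alternatives run). The HADHA and HADHB region had 219, 422 and 123 reads under vehicle and 68, 239 and 219 under OA. After centring, every OA library lay below every vehicle library, as did 10.4% of regions (−0.61 ± 0.30, adjusted p = 0.300 by limma).
ACADM, with 75, 137 and 54 reads under vehicle and 33, 100 and 83 under OA, differed by −0.39 ± 0.25. CPT2, with 84, 101 and 30 against 38, 96 and 101, differed by +0.13 ± 0.20. The 5 regions thus did not move in 1 direction: by percentile, length and pileup 3 of 5 differences were above 0, and by fold 2 of 5.

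**Figure D3:**
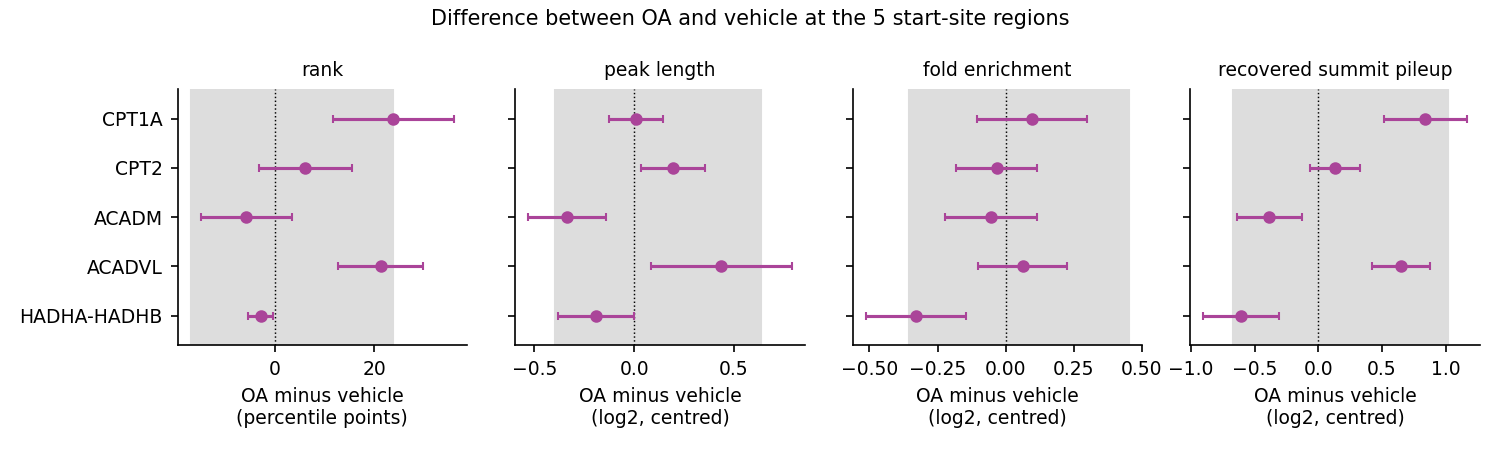
Difference between OA and vehicle (points, with bars for the SE, n = 3 each) at the 5 regions in 4 measures, with the range from the 5th to the 95th percentile of all tested regions in grey. CPT1A and ACADVL lie to the right by rank and pileup (+23.8 and +21.3 points, +0.84 and +0.65 on the log2 scale) and HADHA-HADHB to the left by fold and pileup (−0.33 and −0.61). No difference passed limma's test.

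The 3 unmarked genes were ACADL (ENSG00000115361.8, chr2:210187126-210225447, minus strand), CPT1B (ENSG00000205560.13, chr22:50568861-50578465, minus strand) and CPT1C (ENSG00000169169.15, chr19:49690898-49713731, plus strand). The nearest H3K4me3 region to an ACADL start lay 44658 bp away. It covers starts of KANSL1L and of ENSG00000279317, the noncoding RNA with an exon over the ACADL window printed above. For CPT1C it lay 4676 bp from the closest start and was called in 2 of the 6 libraries. For CPT1B it lay 3465 bp away, just beyond the 3 kb limit, at chr22:50581930-50583851. That region covers starts of CHKB, the choline kinase β gene, of CHKB-DT and of the readthrough gene CHKB-CPT1B. It was called in every library, at percentiles of 77.7, 69.5 and 68.5 under vehicle and 78.5, 63.9 and 89.2 under OA, with overlapping groups.

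H3K27me3 was called in fewer than 2 libraries at the unmarked genes too. Broad peaks within 3 kb of a start were called in 1 library each at 2 genes. At ACADL a peak of 718 bp, chr2:210218799-210219516, was called in vehicle 1, 2080 bp from the nearest start and 5931 bp or more inside the gene from the canonical start, with a fold of 3.59 and a percentile of 32.8. At CPT1A a peak of 188 bp, chr11:68845490-68845677, was called in OA 1, upstream of all annotated starts, with a fold of 3.29 and a percentile of 12.8. With single-library regions counted, the mean number of genes with an H3K27me3 call was 0.333 under each condition. CPT1B, CPT1C and ACADL are thus genes with neither mark called at their starts in 2 or more libraries of a kind.

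The observed over expected CpG ratio in the 500 bp on either side of the canonical start was 0.909 at ACADL, the highest of the 9 genes and higher than at 89.4% of protein-coding genes, 0.697 at CPT1C and 0.645 at CPT1B, higher than at 45.1% and 37.8% of them, where the median over all protein-coding genes was 0.725. Among the marked genes it was 0.888 at CPT1A, 0.822 at ACADM, 0.715 at CPT2, 0.666 at HADHB, 0.657 at ACADVL and 0.652 at HADHA. The median was 0.795 for genes called in all 6 libraries and 0.313 for genes called in none. Of the 6369 genes with a ratio of 0.8 to 1, as at ACADL, 81.1% had a call in all 6 libraries and 9.53% in none. Of the 6530 genes with a ratio of 0.6 to 0.8, as at CPT1B and CPT1C, 72.0% had a call in all 6 and 16.7% in none. ACADL has 79 CpGs in this window, of which 6 lie in the 150 bases printed above.

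**Figure D4:**
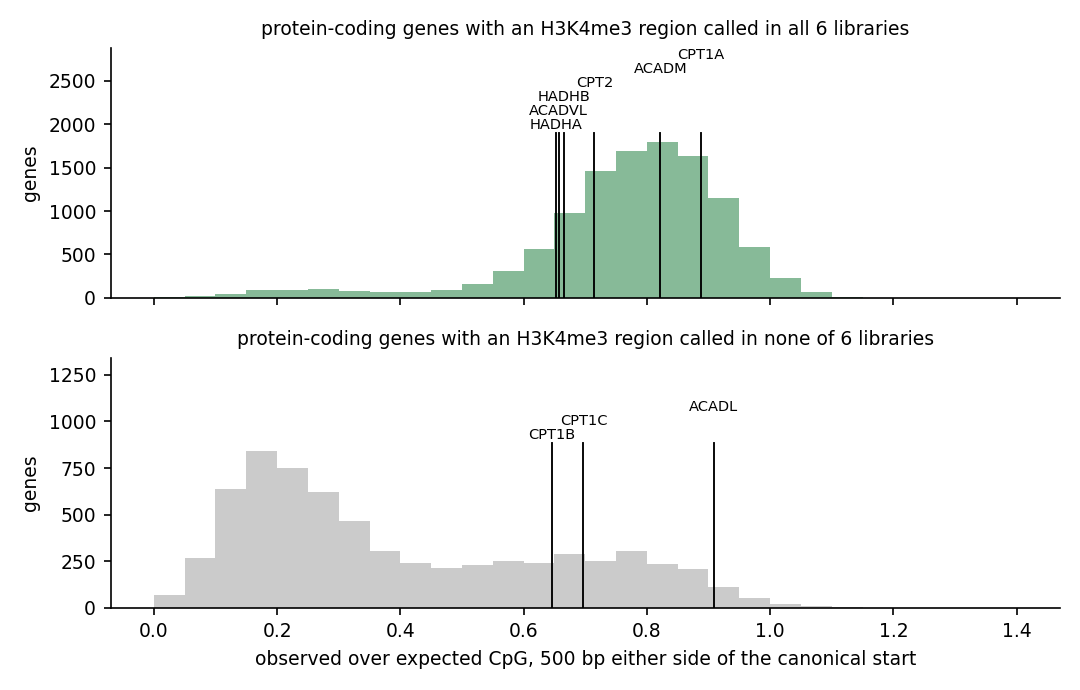
Number of protein-coding genes (vertical axis) by the observed over expected CpG ratio around the canonical start (horizontal axis), for genes with an H3K4me3 region called in all 6 libraries (top) and in none (bottom), with lines for the 9 genes. ACADL at 0.909, CPT1C at 0.697 and CPT1B at 0.645 lie right of the median of the genes called in none, 0.313.

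RefSeq promoters of GRCh38.p14, from 250 bases before a start to 50 after it, were found for 8 of the 9 genes (11 promoters) and searched for 4 motifs on both strands. GGGCGG, the GC box bound by SP factors, occurred in promoters of CPT1C, CPT2, ACADM, ACADVL, HADHA and HADHB and not in those of CPT1A and ACADL. It was in 7 of the 11 promoters, or 63.6%, against 45.0% of 35116 promoters, and the HADHA and HADHB promoters overlap each other. CCAAT, bound by NF-Y, occurred in a CPT1C promoter alone (34.6% of all promoters), CATGCGC, part of the NRF1 site, in another CPT1C promoter alone (4.43%), and AGGTCA, the half-site of nuclear receptors such as the PPARs, in none of the 11 (13.8%). The RefSeq promoter of CPT1A belongs to a start 2361 bp upstream of the canonical one and lies outside the H3K4me3 region, whereas the CPT1A window printed above, at the canonical start, holds GGGCGG 2 times.

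Beyond the 9 genes, 43 others were listed for the pathway. H3K4me3 was called in all 6 libraries at 30 of them (56.5% of all protein-coding genes), in 1 to 5 at 7 and in none at 6, and no gene with a call in all 6 passed limma's test in any of the 4 measures. All 4 genes of carnitine handling were called in every library, as were 11 of 12 further mitochondrial enzymes, 2 of 3 genes of electron transfer, 8 of 9 peroxisomal genes and 2 of 3 genes of malonyl-CoA metabolism, which sets the inhibitor of carnitine palmitoyltransferase 1.
In the activation step, which makes the CoA esters, 3 of 12 acyl-CoA synthetase genes were called in every library and 6 in none. Those in none were ACSM2A, ACSM2B, ACSM4, ACSM5 and ACSM6, medium-chain synthetases, and ACSL5, a long-chain synthetase. ACSM2A and ACSM2B are near-identical copies, so a missing call at either is uncertain. ACSM1 was called in OA 2 and OA 3 at percentiles of 6.22 and 26.7, and ACSL6 in OA 1 and OA 3 at 5.15 and 24.2, both in no vehicle library. Over all protein-coding genes, 1.61% were called in 2 OA libraries and no vehicle library.
ACSM3 was called in every library but vehicle 3, at 25.6 to 45.0, and was the single gene of the list with an H3K27me3 region, called in 1 vehicle and 1 OA library. ACADS (short-chain acyl-CoA dehydrogenase), ETFB (a subunit of the electron transfer flavoprotein) and ACACB (acetyl-CoA carboxylase 2) were likewise missing from vehicle 3 alone, the library with the lowest recovered background. Their ranks in the other 5 libraries were 37.6 to 56.3, 26.4 to 44.4 and 17.9 to 43.0. ACOX2, a peroxisomal oxidase of branched chains, was called in vehicle 1 and 2 and OA 1 at 1.86, 3.76 and 14.1. The part of depth in these patterns was not tested.
Across the 30 genes called in every library, the median difference between OA and vehicle was −0.40 percentile points, beside 0.88 over all 11071 regions, with 14 of 30 above 0. In peak length it was 0.061 beside −0.026, in fold −0.063 beside −0.012 and in pileup 0.031 beside −0.00095 on the centred log2 scale. By percentile the OA libraries lay wholly above the vehicle libraries at 3 of the 30 genes and wholly below at 6, beside the 9.38% and 7.1% of all regions given above.

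**Figure D5:**
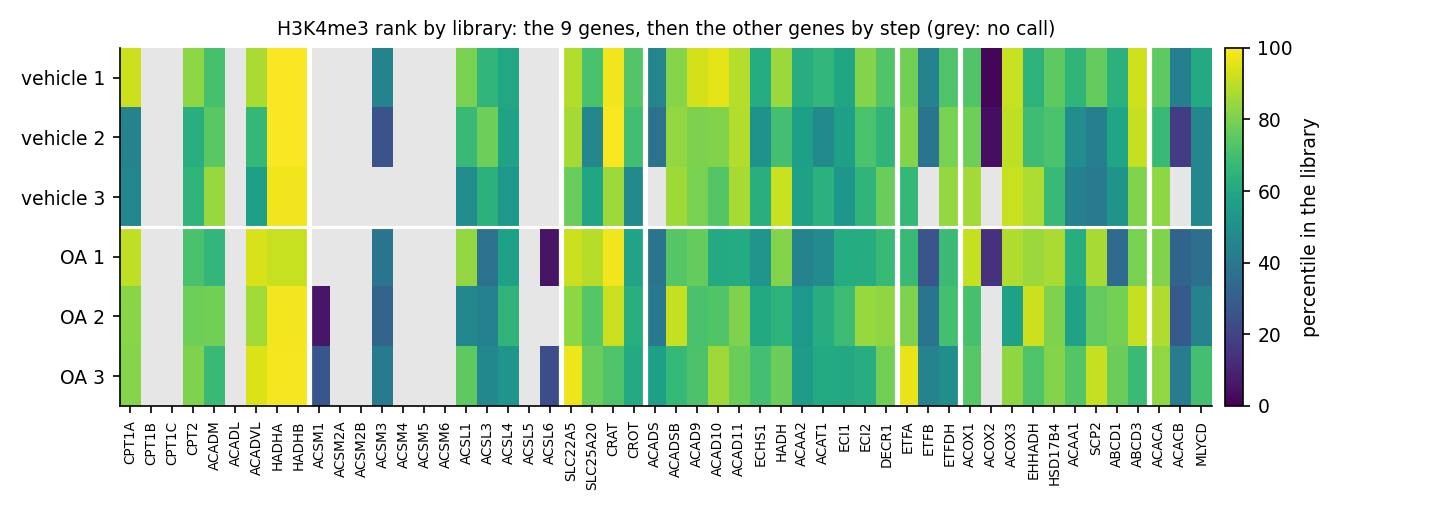
Percentile of the H3K4me3 region (colour) in each vehicle and OA library (rows) for the 9 genes and then 43 further genes of the pathway (columns, white lines between steps), with grey where no peak was called. Grey runs through CPT1B, CPT1C, ACADL and most ACSM genes in every library, and 4 genes, ACSM3, ACADS, ETFB and ACACB, are grey in vehicle 3 alone.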

How the data were processed

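H3K4me3 and H3K27me3 CUT&RUN libraries (3 vehicle and 3 OA each), 2 untreated H3K4me3 and 2 IgG libraries of MCF-10A were used. The authors called H3K4me3 narrow peaks with MACS2 2.2.7.1, and their submitters' notes name SICER, DiffBind 3.9, ChIPseeker 1.8.6 and hg38. SICER2 is given for H3K27me3, but those lists have the broad layout of MACS2. The aligner, the treatment of duplicates and any control library are not given in the sources used here. Each deposited list gives the fold (a ratio of peak to local background) and the −log10 p and −log10 q of every peak, none of them scaled between libraries. The highest q-value deposited is 0.00998 in narrow and 0.1 in broad lists. The deposited score is the −log10 q times 10, cut to a whole number, for nearly all peaks and was not used.

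Peaks of the 6 libraries of a mark on the autosomes, X and Y were merged at an overlap of 1 bp, and a region was kept if 2 libraries or more had a peak in it. Genes were linked to regions within 3 kb of any GENCODE 44 transcript start. limma 3.58.1 (moderated, with trend; R 4.3.3) was fitted over the 11071 H3K4me3 regions called in all 6 libraries, or 11001 with a pileup, with Benjamini-Hochberg adjustment over all of them and a threshold of 0.05. For narrow peaks MACS2 gives (pileup + 1)/(background + 1) as the fold and a Poisson p, from which pileup and background were solved for pileups up to 1500 and −log10 p up to 300, and this worked for 100% of the peaks tried. This measure was added after the data were seen. Counts of genes with a call were compared by exact permutation. The precision behind a value is limited by depth, which is unknown for H3K27me3, and the p-values measure the spread between separately seeded cultures of 1 line.

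All 9 genes are described, and from the 43 other pathway genes those past limma's threshold, called in 1 to 5 libraries or in none, or with H3K27me3. The genes, lists and tests were chosen with earlier results of these data known. Scripts were tested on simulated data in which 200 regions were changed by a known amount. By percentile, limma recovered 3.5% of changes of 20 points and 42% of changes of 40. On the log2 scale it recovered 0% of changes of 0.5 by length and by fold. By pileup it recovered 0% of changes of 1 and 71.5% of changes of 2. Alternatives were a stricter q-value (1e-05), equal numbers of peaks, other distances and overlaps, no minimum of libraries, exclusion of IgG regions, joined H3K27me3 peaks, other scalings, a replicate block and leaving out each replicate. Calculations ran in Python 3.11.15 with matplotlib 3.10.9, scipy 1.17.1, numpy 2.4.6 and pandas 2.3.3. DiffBind's read counts were not analysed here.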

Additional observations from a re-analysis of the deposited data

How the results depend on the processing

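The numbers of genes with a call differed by 0 between OA and vehicle under every alternative run for either mark. The number of the 5 regions past limma's threshold stayed at 0 under every alternative run but 1: leaving out each replicate gave 0 to 1 by pileup, the 1 being CPT1A without vehicle replicate 1, and 0 by percentile, length and fold. Without centring, the difference in fold turned from 0.097 to −0.069 at CPT1A and from 0.063 to −0.10 at ACADVL. Leaving out 1 replicate turned the sign of length at CPT1A (−0.035 to 0.075), ACADVL (−0.0075 to 0.70) and HADHA-HADHB (−0.30 to 0.011), and of fold at CPT1A (−0.039 to 0.31), CPT2 (−0.084 to 0.016), ACADM (−0.13 to 0.065) and ACADVL (−0.061 to 0.16). The differences in percentile ran from 15.7 to 39.5 at CPT1A, from 14.5 to 29.9 at ACADVL, from 2.30 to 12.4 at CPT2, from −9.65 to −1.78 at ACADM and from −4.10 to −0.601 at HADHA-HADHB without turning. Over all regions tested, limma called 2 by percentile (0 to 5 under the alternatives), 0 by length (0 to 10), 1 by fold (0 to 11) and 13 by pileup (0 to 551). The cause of these changes was not tested. To look for pairing, same-numbered vehicle and OA libraries were correlated, giving 0.186, 0.194 and −0.150 for H3K4me3 and 0.0635, −0.00891 and −0.00455 for H3K27me3. Between unlike-numbered libraries the values ran from −0.334 to 0.155 and from −0.0408 to 0.0457. The highest values for each mark were thus same-numbered, but other same-numbered values lay below 0. The numbers were not taken to pair the samples, and pairing was not settled. These values bear on pairing alone and do not measure how far the libraries agree. With the replicate block, 0 of the 5 regions passed in any measure and 0 regions of the whole table were called, and the numbers of genes with a call differed by 0. Vehicle 3 had the lowest recovered background of the 6 H3K4me3 libraries, 0.450, and OA 1 the highest, 0.853. Over the regions called in all 6, OA 1 had the lowest median fold, 7.18, and a median pileup of 39, beside 33 in vehicle 3. No read numbers or replicate-level depth stand behind the H3K27me3 calls.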

Other observations

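Among the pathway genes called in all 6 H3K4me3 libraries, 3 were picked after their values were seen, since they stand next to the carnitine and activation steps or differed most in rank. SLC25A20, the translocase that carries acylcarnitines across the inner membrane between CPT1A and CPT2, had a mean percentile of 58.9 in vehicle and 80.0 in OA. Every OA library lay above every vehicle library, as at 9.38% of all tested regions (difference 21.1 points, adjusted p = 0.456 by limma). ACSL3, a long-chain acyl-CoA synthetase, went the other way, from 69.4 to 42.6. Every OA library of it lay below every vehicle library, as at 7.1% of all tested regions (−26.8 points, adjusted p = 0.284 by limma). SCP2, a peroxisomal thiolase and sterol carrier, had 53.7 in vehicle and 84.7 in OA with overlapping groups (31.0 points, adjusted p = 0.325 by limma). None of these differences passed the test.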
